A study of Mus musculus with 4 samples.

Results

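The 32 genes described here encode enzymes that build sterols and fatty acids, 19 of them in the sterol and isoprenoid branch and 13 in the fatty acid branch, out of 20923 protein-coding genes. They were taken as a list of gene names, and each was kept whether or not a PPARγ-bound region lay near it. A region was a stretch of overlapping peaks (by at least 1 bp) with a peak from both libraries, assigned to the protein-coding gene whose curated RefSeq transcription start site (TSS) was nearest to its centre. Of 20233 such regions, 35 were nearest to 15 of the 32 genes.

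HT-ChIPmentation, a chromatin immunoprecipitation whose libraries are built by a transposase acting on bead-bound DNA, was used to map PPARγ. The cells were alveolar macrophages (AMs) that had been washed from the lungs of wild-type C57BL/6J mice of 9 weeks, per the study's methods, and purified by FACS. All libraries share that genotype and age, so the series holds no contrast between genotypes or treatments. Its 2 ChIP libraries, called library 1 and library 2, were each called against an input library made without antibody, and the 2 input libraries were not analysed here. Nothing in the labels says that the libraries came from separate animals, or how many animals each one pools, so differences between them may be technical.

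Library 1 held 83787 peaks and library 2 held 28535. The lists carry no read counts, so the depth behind a peak cannot be read from them. Sequencing quality data that the study provides separately were not used. Strength is described here by the authors' fold enrichment of ChIP over input. All 9 AM marker genes examined had a region, from 3 at Ear1 to 12 at Pparg. No region was nearest to the 3 lymphocyte or the 3 neutrophil markers. Of 5 epithelial markers, 2 had one (Epcam and Scgb1a1, 2 regions each), and of 3 endothelial markers, 1 (Pecam1, 3 regions). Over all protein-coding genes the share with a region was 31.6%. The Wilson interval of the AM markers (70.1 to 100%) lay above that share. Those of the lymphocyte and neutrophil markers (0 to 56.1% each), epithelial markers (11.8 to 76.9%) and endothelial markers (6.15 to 79.2%) held it. The markers of these other cell types thus cannot be told from all genes. Binding near a gene does not show how much of another cell type a sample holds.

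Sterols are made from acetyl-CoA through mevalonate, which is turned into isoprenoid units, squalene and lanosterol before the last steps to cholesterol. Fatty acids are also built from acetyl-CoA, which acetyl-CoA carboxylase and fatty acid synthase join into palmitate, a chain that elongases and desaturases then modify. Both branches are classically controlled by SREBP transcription factors, which act at promoters together with NF-Y and SP factors. PPARγ is a lipid-sensing nuclear receptor that pairs with RXR, and AMs clear the lipid-rich surfactant of the airspace.

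The sequences beneath 8 of the 35 regions, chosen by rank, are shown first. Each line is the mm10 plus strand, 5′ to 3′, from 100 bp before to 100 bp after the strongest library 1 summit, and capitals mark letters that match a motif searched. The first 5 regions lie within 1 kb of a TSS and belong to mevalonate kinase (Mvk, chr5:114444061-114444261), phosphomevalonate kinase (Pmvk, chr3:89458774-89458974), mevalonate diphosphate decarboxylase (Mvd, chr8:122444421-122444621), geranylgeranyl diphosphate synthase (Ggps1, chr13:14062620-14062820) and the elongase Elovl5 (chr9:77917219-77917419). The Mvd region reaches into that distance only by its edge. Its centre lies 1.10 kb upstream of the TSS, and another Mvd region covers the TSS. The other 3 regions are distal and were assigned to HMG-CoA synthase (Hmgcs1, chr13:119713240-119713440), Elovl5 (chr9:77931002-77931202) and the elongase Elovl6 (chr3:129479934-129480134). The Mvk window holds 5 NF-Y boxes, the Pmvk and Hmgcs1 windows hold no match, and the distal Elovl5 window holds the one inexact repeat of AGGTCA half-sites spaced for PPARγ and RXR that was found in the 35 regions.
Mvk near TSS: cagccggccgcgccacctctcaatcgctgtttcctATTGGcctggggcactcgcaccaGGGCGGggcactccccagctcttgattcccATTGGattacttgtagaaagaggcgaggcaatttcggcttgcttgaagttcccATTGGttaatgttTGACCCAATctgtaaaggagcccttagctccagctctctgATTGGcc
Pmvk near TSS: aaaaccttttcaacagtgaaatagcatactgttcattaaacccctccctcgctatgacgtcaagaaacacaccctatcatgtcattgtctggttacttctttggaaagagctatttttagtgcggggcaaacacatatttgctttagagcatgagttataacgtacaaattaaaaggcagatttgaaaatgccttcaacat
Mvd near TSS: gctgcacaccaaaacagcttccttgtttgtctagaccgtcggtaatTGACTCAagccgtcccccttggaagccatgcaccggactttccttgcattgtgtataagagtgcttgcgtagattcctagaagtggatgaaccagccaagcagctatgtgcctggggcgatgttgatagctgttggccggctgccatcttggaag
Ggps1 near TSS: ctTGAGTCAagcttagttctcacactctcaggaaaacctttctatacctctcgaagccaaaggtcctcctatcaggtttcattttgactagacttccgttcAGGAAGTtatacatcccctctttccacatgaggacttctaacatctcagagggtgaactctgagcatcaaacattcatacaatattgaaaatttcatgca
Elovl5 near TSS: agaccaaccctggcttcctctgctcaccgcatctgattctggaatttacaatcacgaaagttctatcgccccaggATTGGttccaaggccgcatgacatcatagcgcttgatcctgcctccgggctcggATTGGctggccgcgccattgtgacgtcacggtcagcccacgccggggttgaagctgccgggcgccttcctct
Hmgcs1 distal: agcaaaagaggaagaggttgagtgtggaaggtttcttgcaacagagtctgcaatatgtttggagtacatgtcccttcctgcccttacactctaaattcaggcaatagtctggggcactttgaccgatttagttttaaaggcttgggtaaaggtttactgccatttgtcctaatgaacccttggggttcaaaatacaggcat
Elovl5 distal: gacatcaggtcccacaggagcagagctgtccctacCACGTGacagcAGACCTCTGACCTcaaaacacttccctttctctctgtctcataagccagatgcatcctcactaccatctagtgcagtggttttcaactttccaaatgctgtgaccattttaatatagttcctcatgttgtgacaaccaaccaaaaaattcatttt
Elovl6 distal: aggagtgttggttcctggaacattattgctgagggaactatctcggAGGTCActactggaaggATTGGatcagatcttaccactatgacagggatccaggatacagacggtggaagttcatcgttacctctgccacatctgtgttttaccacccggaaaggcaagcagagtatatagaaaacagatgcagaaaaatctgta

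Regions found in both libraries were nearest to 11 of 19 sterol genes (57.9%, 95% Wilson interval 36.3 to 76.9%) and to 4 of 13 fatty acid genes (30.8%, 12.7 to 57.6%). Over all protein-coding genes the share was 31.6%, which lay below the sterol interval and inside the fatty acid interval. The sterol interval held the background under 3 other rules: summits within 100 bp (7 of 19, 19.1 to 59.0%, background 24.2%), noncoding genes admitted (9 of 19, 27.3 to 68.3%, background 29.7%) and assignment by gene body or 5 kb upstream (9 of 19, background 30.5%). The intervals of both groups overlapped, and they cover counting error only, since genes of a pathway are not replicates. The gap also depended on the library. With library 1 alone, 16 of 19 sterol genes (84.2%) and 10 of 13 fatty acid genes (76.9%) had a peak, against 60.6% of all genes. With library 2 alone, 11 of 19 (57.9%) and 4 of 13 (30.8%) had one, against 34.9%.

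**Figure D1:**
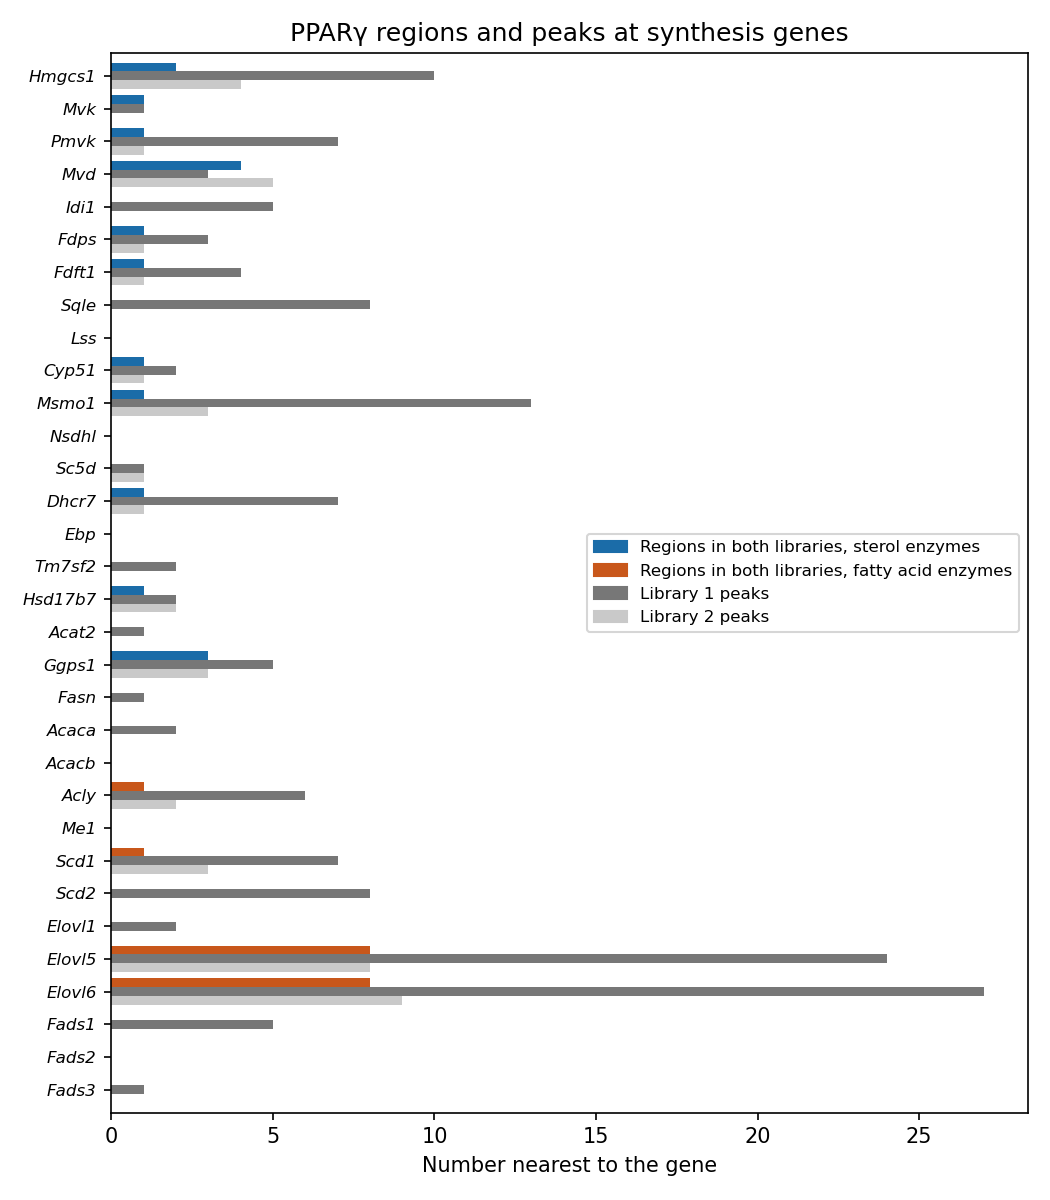
Number of regions and peaks (horizontal axis) nearest to each of the 32 genes (vertical axis), with coloured bars for regions found in both libraries (blue for sterol, orange for fatty acid enzymes), dark grey bars for library 1 peaks and light grey bars for library 2 peaks, each peak being assigned by its own centre. Elovl5 and Elovl6 hold 8 regions each, and 17 genes hold none.

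The branches differed in plain counts at the TSS. A region within 1 kb of a gene's own TSS was present at 8 of 19 sterol genes (42.1%, 23.1 to 63.7%), namely Mvk, Pmvk, Mvd, Fdps, Cyp51, Dhcr7, Hsd17b7 and Ggps1, and at 1 of 13 fatty acid genes (7.69%, 1.37 to 33.3%), Elovl5. The background was 23.2%, which lay inside both intervals. Each of these 9 genes also had a region that covered a TSS base, which 15.7% of all genes had. Library 1 alone placed a peak within 1 kb at 15 of 19 sterol genes (78.9%, 56.7 to 91.5%) and 6 of 13 fatty acid genes (46.2%, 23.2 to 70.9%), against 44.3% of all genes. Library 2 alone gave 10 of 19 (52.6%, 31.7 to 72.7%) and 1 of 13 (7.69%), against 24.3%.

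**Figure D2:**
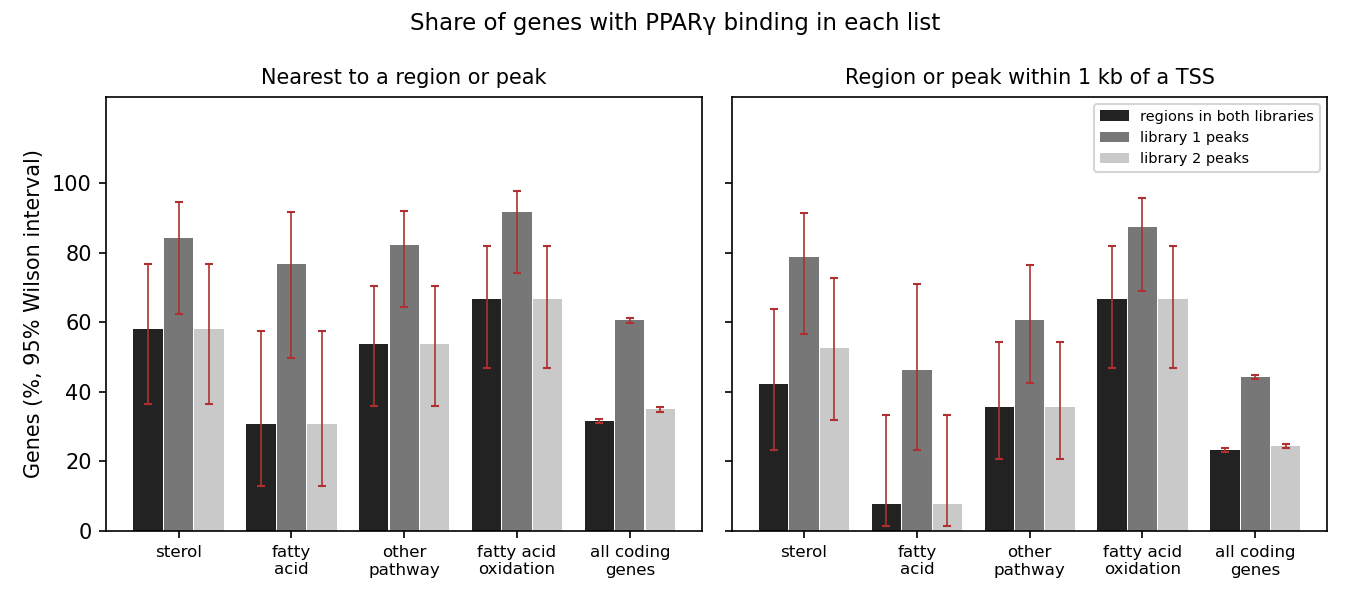
Share of genes (%, vertical axis, with 95% Wilson intervals as red bars) that are nearest to a region or peak (left) or have one within 1 kb of a TSS (right), for sterol enzymes (19 genes), fatty acid enzymes (13), other genes of the pathways (28), fatty acid oxidation genes (24) and all 20923 protein-coding genes. In the right panel the black bars stand at 42.1% for sterol and 7.69% for fatty acid enzymes, against 23.2% for all genes.

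The branches held nearly the same number of regions but arranged them differently. Sterol genes had 17 regions spread over 11 genes, 8 of which had a single region, whereas 16 of the 18 fatty acid regions belonged to Elovl5 and Elovl6. The median distance from region centre to TSS was 0.762 kb for sterol regions and 31.4 kb for fatty acid regions, against 8.46 kb for all regions. The fatty acid median rested largely on Elovl6, whose regions lay 50.9 to 94.5 kb away. The other fatty acid regions lay 0.160 to 44.2 kb from their TSS. Of the sterol regions, 10 (58.8%, 36.0 to 78.4%) lay within 1 kb of any protein-coding TSS, and of the fatty acid regions 2 (11.1%, 3.10 to 32.8%), both at Elovl5, against 28.5% of all regions. These intervals treat regions of the same gene as independent, which they are not, so they cover counting error only. Fatty acid genes also had more genome to themselves, with a median of 70.7 kb nearest to their TSSs against 40.6 kb for sterol genes and 48.8 kb for all genes. Per megabase of that genome the totals were alike, with 16.6 regions for sterol and 16.3 for fatty acid genes, against 7.68 over all genes. The fatty acid value rested on Elovl5 and Elovl6, with 8 regions each in 149 and 196 kb, and most of the other fatty acid genes had no region. It also rested on the choice of protein-coding genes, since Elovl6 kept no region when noncoding genes were admitted.

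**Figure D3:**
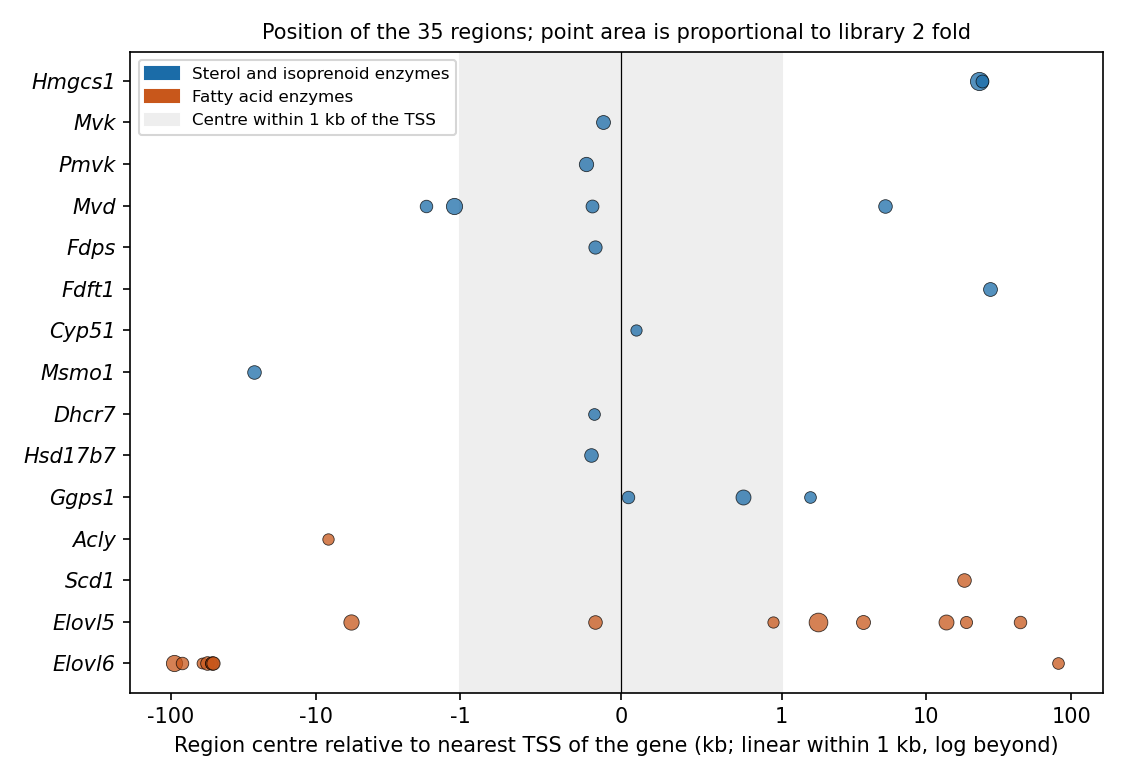
Position of the 35 regions along the horizontal axis (region centre relative to the nearest TSS of the gene in kb, linear within 1 kb and logarithmic beyond), by gene, with blue for sterol and orange for fatty acid enzymes and the point area proportional to the library 2 fold enrichment. The grey band marks centres within 1 kb of the TSS, and the Mvd region at -1.10 kb counts as near the TSS because its edge reaches into that distance. The band holds points of 8 sterol genes and of Elovl5, while the Elovl6 points lie from 50.9 to 94.5 kb away.

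Of the pair of enzymes that lead to HMG-CoA, Hmgcs1 and Acat2, the first had regions. Hmgcs1, which condenses acetoacetyl-CoA into HMG-CoA, carried the best-ranked of all 35 regions at chr13:119712770-119713788, 22.9 kb downstream of its TSS and inside intron 3 of the neighbouring gene Nim1k. Its fold enrichment was 13.6 in library 1 and 9.54 in library 2, and taking the lower of its percentiles (93.3) it ranked 805 among the 20233 regions. A weaker region 24.2 kb downstream, in intron 2 of Nim1k, had folds of 4.44 and 4.79. At the Hmgcs1 TSS itself only library 1 had peaks, 2 in number with a highest fold of 5.04. Acat2, the thiolase that makes acetoacetyl-CoA, had a single library 1 peak, which lay within 1 kb of its TSS with a fold of 3.85, and the nearest region was 29.9 kb away at Wtap.

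The kinases and the decarboxylase that follow were all bound at a TSS. Mvk, which phosphorylates mevalonate, had a region at chr5:114444003-114444309, centred 113 bp upstream of its TSS, with folds of 8.62 and 5.57. That region also lay within 1 kb of the TSS of Mmab, a gene of cobalamin metabolism, and the library 2 peak alone was nearer to Mmab, which is why Mvk has no library 2 peak of its own. Pmvk, which adds another phosphate, had a region at chr3:89458446-89459355 with folds of 12.4 and 5.91, inside intron 1 and 217 bp upstream of an internal TSS, 1 of its 3. Mvd, which decarboxylates the product to isopentenyl diphosphate, had 4 regions, the most of any sterol gene. The one over its TSS, at chr8:122443266-122443944, had folds of 13.0 and 4.79. A second, at chr8:122444106-122444932, had folds of 7.06 and 7.59 and was the stronger one in library 2. The third (3.84 and 4.52) lay 1.73 kb upstream, like the second in exon 1 of the noncoding gene 9330133O14Rik, and the fourth (10.4 and 5.34) lay in Mvd intron 4. When noncoding genes were admitted as nearest genes, 3 of the 4 went to 9330133O14Rik and Mvd kept 1.

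Among the prenyl-diphosphate enzymes, 2 of 3 had regions. Fdps, farnesyl diphosphate synthase, had one at chr3:89101881-89102376, 162 bp upstream of its TSS, with folds of 8.0 and 5.07 and summits 245 bp apart. Ggps1, which leads to the geranylgeranyl groups of prenylated proteins, had 3 regions. The one over the TSS (chr13:14063142-14063745) had folds of 9.77 and 4.50, that at 0.762 kb had 7.70 and 6.47, and that at 1.58 kb had 2.96 and 3.96. The first pair also lay within 1 kb of a TSS of Arid4b, a chromatin gene. Idi1, isopentenyl diphosphate isomerase, had no region although library 1 placed 4 peaks within 1 kb of its TSS, with a highest fold of 7.11. Library 2 had no peak nearest to Idi1.

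Of the 3 enzymes that make squalene and lanosterol, 1 had a region. Fdft1, squalene synthase, had a region (chr14:63150061-63150361) 27.7 kb into the gene, in intron 7, with folds of 6.22 and 5.54. When noncoding genes were admitted, that region went to Gm51283. Sqle, squalene epoxidase, had 8 library 1 peaks with a highest fold of 6.52 and none in library 2, and its nearest region was 76.7 kb away at Nsmce2. Lss, lanosterol synthase, had no peak in either library, and its nearest region was 88.6 kb away at Pcnt.

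Of the 8 enzymes that convert lanosterol into cholesterol, 4 had a region. Cyp51, the lanosterol demethylase, had a weak one over its 5′ UTR at chr5:4104436-4104765, with folds of 4.15 and 3.68, which is the lower 14.0% and 5.88% of all regions. Dhcr7, which carries out the last reduction to cholesterol, had a region at chr7:143829866-143830232 with folds of 5.92 and 3.96, in intron 1 and 165 bp upstream of an internal TSS. A second region at its first TSS (chr7:143822415-143823136, folds 5.92 and 5.63) was assigned to Nadsyn1, whose TSS lies 315 bp from that of Dhcr7. Hsd17b7, a sterol ketoreductase, had a region at chr1:169969142-169969638 with like folds of 5.33 and 5.35, which went to 3110045C21Rik when noncoding genes were admitted. Msmo1, the methylsterol oxidase, had a region only at a distance, 26.5 kb upstream at chr8:64759905-64760347 in intron 6 of Klhl2, with folds of 8.29 and 5.35. Both libraries had peaks within 1 kb of the Msmo1 TSS (highest folds 5.63 and 4.24), but these did not overlap.

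The other 4 genes of these steps had no region. Sc5d, the sterol desaturase, had a library 2 peak within 1 kb of its TSS (fold 4.52) and a library 1 peak elsewhere (4.15), and it was the one gene without a region that had a library 2 peak. Tm7sf2, a sterol reductase, had a library 1 peak at its TSS with a fold of 3.85. Nsdhl and Ebp, a sterol dehydrogenase and a sterol isomerase, both on the X chromosome, had no peak in either library. The region nearest to Ebp was 47.4 kb away, at Rbm3.

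In the fatty acid branch, 1 of the 5 enzymes that supply or make palmitate had a region. Fasn, fatty acid synthase, had 1 library 1 peak, within 1 kb of its TSS, with a fold of 4.74, and no library 2 peak. Acaca, the cytosolic acetyl-CoA carboxylase, had 2 library 1 peaks with a highest fold of 4.44, neither within 1 kb of its TSS, and its nearest region was 447 kb away at Wfdc21. Acacb, the mitochondrial carboxylase, and Me1, the malic enzyme that supplies NADPH, had no peak. Acly, which makes cytosolic acetyl-CoA from citrate, had a region at chr11:100536025-100536291, 8.16 kb upstream, with folds of 4.15 and 3.75, among the lower 14.0% and 6.13% of all regions. At the Acly TSS only library 1 had peaks, 2 in number with a highest fold of 5.04.

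Of the 5 desaturases, 1 had a region. Scd1, which introduces the double bond of oleate, had a region 18.3 kb from its TSS, beyond the 3′ end of the gene, at chr19:44388736-44390064. It spanned 1329 bp, with folds of 7.41 and 5.35, and held 1 library 1 peak and 3 library 2 peaks. Scd2, its neighbour, had 8 library 1 peaks with a highest fold of 5.92 and no library 2 peak. The 3 neighbouring genes of the Fads family, Fads1, Fads2 and Fads3, had 5, 0 and 1 library 1 peaks and no library 2 peak.

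The elongases Elovl5 and Elovl6 held most of the fatty acid regions. Elovl5, which lengthens polyunsaturated chains, had 8 regions from 5.69 kb upstream to 44.2 kb downstream of its TSS, and 5 of them lay in intron 1 between 0.947 and 18.7 kb. The TSS region at chr9:77916966-77917443 had a fold of 13.0 in library 1 and 5.35 in library 2. The region 1.78 kb downstream, at chr9:77918732-77919549, showed the opposite order with 8.59 and 10.1, the highest library 2 fold of the 35 regions. The region 13.8 kb downstream, at chr9:77930926-77931333, had folds of 8.89 and 6.47, summits 5 bp apart and the second-best rank of the 35, 3792. The remaining 5 regions had library 1 folds from 5.76 to 7.70 and library 2 folds from 3.68 to 6.75.

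Elovl6, which lengthens palmitate to stearate, was bound far from its TSS. Of its 8 regions, 7 lay in intergenic sequence between 94.5 and 50.9 kb upstream and 1 in intron 3, 81.6 kb downstream. The upstream region at chr3:129479524-129480411 had folds of 13.3 and 5.35, and that at chr3:129475498-129476125 had 9.18 and 5.35. The farthest, 94.5 kb upstream, was weak in library 1 (3.52) and stronger in library 2 (7.59). The other upstream regions had library 1 folds from 3.55 to 6.81 and library 2 folds from 3.40 to 5.07, and the intronic one had 4.44 and 3.96. The only peak within 1 kb of the Elovl6 TSS was a library 1 peak with a fold of 3.84. The assignment of these regions rested on the choice of protein-coding genes: with noncoding genes admitted, the 7 upstream regions went to Pou5f1-rs4 and the intronic one to Gm35986, which left Elovl6 with none. Elovl1, another elongase of the list, had 2 library 1 peaks, both within 1 kb of a TSS, with a highest fold of 5.04, and no library 2 peak.

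In strength the 35 regions resembled the rest. Sterol regions had a median fold of 7.70 in library 1 and 5.34 in library 2, fatty acid regions 6.52 and 5.21, and all regions 6.81 and 5.35. The median of the lower percentile was 44.5 for sterol, 34.4 for fatty acid and 36.6 for all regions. The fold was higher in library 1 in 25 of the 35 regions (71.4%), against 71.8% of all regions. The regions were narrower than usual, with medians of 443 bp for sterol and 518 bp for fatty acid regions against 626 bp.

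**Figure D4:**
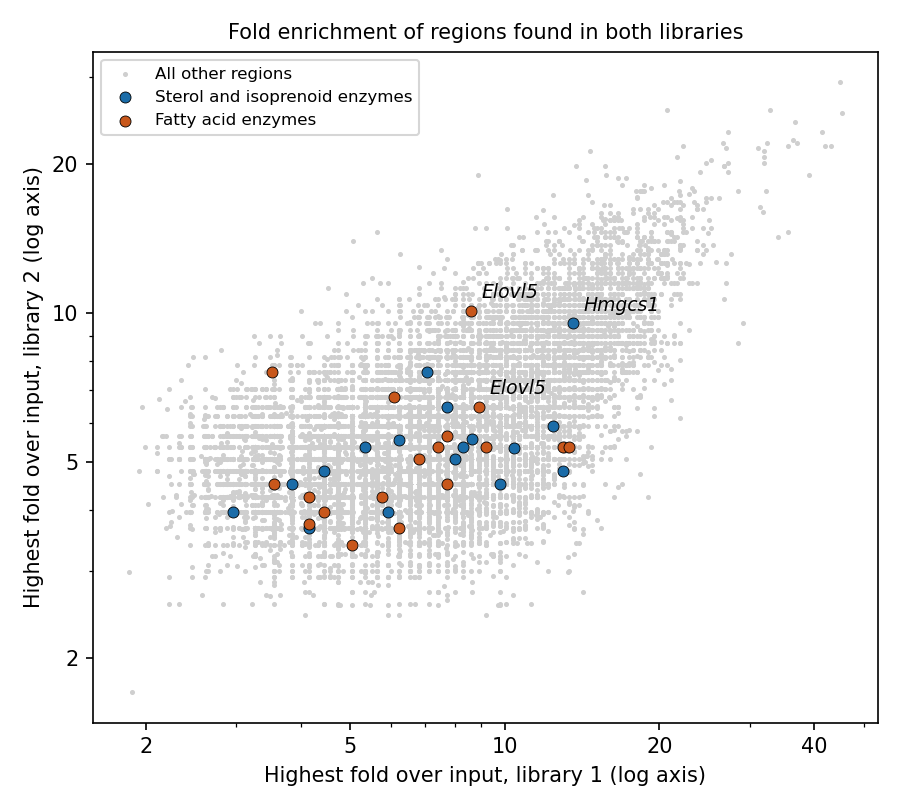
Highest fold enrichment over input in library 1 (horizontal, log axis) against library 2 (vertical, log axis) for the 20233 regions found in both libraries, in grey, with the 17 sterol regions in blue and the 18 fatty acid regions in orange. The 3 best-ranked regions are named. The Hmgcs1 region stands at 13.6 and 9.54, and the coloured points otherwise lie within the grey cloud, below its upper end of 45.3 and 29.4.

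Letters of known motifs were counted on either strand of the 201 bp windows around the summits of the 35 regions and compared with all 20233 regions. The SREBP element TCACNCCAC was in 0 of 35, against 0.865% of all regions, so a share of this size could not be seen in 35 regions. Around the library 2 summits it was in 1, against 0.870% of all regions. The NF-Y box CCAAT was in 9 (25.7%, 14.2 to 42.1%) against 26.7%, and the SP box GGGCGG in 6 (17.1%, 8.10 to 32.7%) against 10.6%. In the 12 regions within 1 kb of a TSS, CCAAT was in 6 (50%, 25.4 to 74.6%) against 31.8% of all such regions and GGGCGG in 5 (41.7%, 19.3 to 68.0%) against 27.1%. The Mvk sequence above carries both, with CCAAT or its complement ATTGG at 5 places, 10 to 96 bp from the summit.

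For factors that act in macrophages, 1 of 4 motifs had an interval that left out the share of all regions, by a narrow margin. Around the library 1 summits of the 35 regions, no other motif searched did so. The AP-1 letters TGANTCA were in 7 regions (20%, 10 to 35.9%) against 9.98%, which lies just outside that interval, among them the Mvd and Ggps1 sequences above. Around the library 2 summits they were in 6 (17.1%, 8.10 to 32.7%) against 9.53%, and within 50 bp of the library 1 summit in 4 (11.4%, 4.54 to 26%) against 5.51%, with both intervals holding the background. The ETS letters AGGAAGT, which PU.1 can bind, were in 5 (14.3%) against 16.7%, and the C/EBP letters TTGCNNAA in 6 (17.1%) against 15.1%. The RUNX letters TGTGGTT were in 0 of 35, with an interval up to 9.89%, against 8.02%, and in 2 around the library 2 summits, against 7.29%. The E-box CACGTG was in 2 (5.71%), both at Elovl5, against 4.33%, and around the library 2 summits in 4 (11.4%, 4.54 to 26%) against 3.86%.

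For nuclear receptor letters, each interval held the share of all regions. The half-site AGGTCA was in 5 regions (14.3%, 6.26 to 29.4%) against 14.9%, and GGGTCA in 5 (14.3%) against 9.92%. An exact DR1, AGGTCA repeated after 1 base as PPARγ and RXR bind it, was in none of the 35 and in 0.0643% of all regions. With up to 2 mismatches it was in 1 (2.86%, 0.506 to 14.5%), the Elovl5 region 13.8 kb downstream, as AGACCTCTGACCT on the plus strand, against 4.57% of all regions. This match overlaps the AGGTCA half-site counted there. The DR4, with 4 bases between the half-sites as LXR and RXR bind it, was found with up to 2 mismatches in 1 region (2.86%), at Dhcr7, against 2.23%, and exactly in none, against 0.00988%.

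The promoters themselves were read from RefSeq sequence (GRCm38.p6, 250 bases before to 50 after a start), which was matched for 16 of 19 sterol and 10 of 13 fatty acid genes. Fdps, Fdft1, Sqle, Scd1, Scd2 and Fads1 had no entry. A gene counted when any of its promoters held the letters on either strand. CCAAT was in the promoters of 15 of 16 sterol genes (93.8%, 71.7 to 98.9%) and 7 of 10 fatty acid genes (70.0%, 39.7 to 89.2%), against 42.7% of all genes. GGGCGG was in 14 of 16 (87.5%, 64.0 to 96.5%) and 5 of 10 (50%, 23.7 to 76.3%), against 50.9%. Among these sterol genes, CCAAT was in a promoter of 7 of 7 with a PPARγ region within 1 kb and of 8 of 9 without one. GGGCGG was in 5 of 7 and 9 of 9. At Pmvk, CCAAT was in the promoter chr3:89454291-89454590, of another start than the internal TSS near its region at chr3:89458446-89459355. The SREBP element was matched at 1 gene of the list, Hmgcs1, whose promoter carries it at bases 137 to 129 before the TSS, against 1.45% of all genes. A library 1 peak (chr13:119690081-119690388, fold 5.04) overlapped this promoter (chr13:119690101-119690400), and library 2 had none there. The stretch around the element is shown because it is the one SREBP match of the list, 5′ to 3′ on the plus strand, with the element in capitals.
Hmgcs1 promoter: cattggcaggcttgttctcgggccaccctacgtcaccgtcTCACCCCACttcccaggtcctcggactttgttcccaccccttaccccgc

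Other genes of these pathways had regions at a share near that of the sterol enzymes, 15 of 28 (53.6%, 35.8 to 70.5%, against 31.6% of all genes), with 26 regions and 10 genes (35.7%, 20.7 to 54.2%, against 23.2%) with one within 1 kb of a TSS. Among the regulators, Insig1, which retains the SREBP complex in the endoplasmic reticulum, had 3 regions, Srebf2 and Srebf1, which encode the SREBPs, had 2 and 1, and Nr1h3, which encodes LXRα, had 2. Scap, the escort of the SREBPs, Insig2 and other regulators of the list had none. Of the enzymes that complete fatty acid elongation, Hacd4 had 4 regions, Hsd17b12 had 3 and Hacd2 and Tecr had 1 each, while other Hacd genes of the list had none.

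Fatty acid oxidation, the opposite process, is a known area of PPAR target genes. Of 24 oxidation genes, 16 had a region (66.7%, 46.7 to 82.0%, against 31.6% of all genes) and 16 had one within 1 kb of a TSS (against 23.2%), with 45 regions in all. At the TSS their interval lay wholly above that of the fatty acid enzymes (1.37 to 33.3%) and overlapped that of the sterol enzymes (23.1 to 63.7%). Cpt1a, which controls entry of fatty acids into mitochondria, had 6 regions, and Ehhadh of the peroxisomal pathway had 4. Regions per megabase nearest to these genes were 31.5, against 16.6 and 16.3 in the sterol and fatty acid branches and 7.68 over all genes.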

How the data were processed

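Peak lists of 2 PPARγ ChIP libraries of sorted AMs were analysed. The submitters' notes and the study's methods state that the authors trimmed with cutadapt, aligned to mm10 with Bowtie2 and filtered with SAMtools, and they also list bcl2fastq 2.20.0.422 and CASAVA. MACS3 then called peaks of single libraries over input at a q of 0.05, without pooling. The deposited lists give each peak's position, its fold enrichment (ChIP over input, a linear ratio), −log10 of its p-value and q-value, a score derived from the q-value, and its summit. The largest q was 0.0497 in library 1 and 0.0464 in library 2. Shallow sequencing leaves weak peaks uncalled, so a gene without a region may carry binding that was not called.

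Peaks were merged, assigned and searched for letters in Python 3.11.15 with NumPy 2.4.6 and SciPy 1.17.1, using curated RefSeq transcripts and sequence of GRCm38.p6, the assembly of mm10 (peaks on chromosome 1 end at 195241800 at most, within its 195471971 bp). A region was within 1 kb of a TSS when any of its bases was. The fold of a region is that of its highest peak in each library, and regions were ranked by the lower of both percentiles. Merging was tested on simulated peaks planted at known genes. The expected gene there came from the same nearest-TSS step, so the assignment was not tested by it. Intervals are 95% Wilson intervals and cover counting error only. Those over regions, including the motif shares, treat regions of the same gene as independent. With 1 group, no test between conditions was possible and none was run. All 32 genes are named by rule; sequences were shown for the best-ranked TSS region of each gene, the first 5 genes by rank, and likewise for distal regions of the first 3 genes. The genes, lists and letters were chosen with earlier results of these data known, and the promoter comparison was added after the regions had been seen. Some genes of the comparison lists are not reported here by name.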

Additional observations from a re-analysis of the deposited data

How the results depend on the processing

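Of 88 values recomputed under other settings, 61 stayed within the 95% interval of the reported share or within 1.5 times the reported count, and 27 moved beyond it. These intervals are wide for the 32 genes and narrow for all genes. Leaving out library 2 moved the most values, 7. With either library left out, the share of sterol genes ranged from 57.9 to 84.2%, of fatty acid genes from 30.8 to 76.9% and of all genes from 34.9 to 60.6%, sterol regions from 23 to 74, fatty acid regions from 22 to 83, and shares with a TSS region from 52.6 to 78.9% and from 7.69 to 46.2%. The higher values are those without library 2. The share of all genes was 30.2% at a q of 0.001, 22.7% at a fold of at least 5, 22.4% with reciprocal 50% overlap, 24.2% with summits within 100 bp, 29.7% with any gene class, 29.7% within 50 kb of the TSS and 30.5% with assignment by gene body or 5 kb upstream. Sterol regions fell to 10 at a fold of at least 5, 11 with reciprocal overlap and 10 with near summits. Fatty acid regions fell to 9, 11 and 11, and to 10 with any gene class, 10 within 50 kb and 8 by gene body. Within 50 bp of the summit, GGGCGG and GGGTCA were each in 2.86% of the regions, against 5.76% and 5.13% of all regions. The inexact DR1 was in 0 there, against 2.33%.

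Under those 4 peak settings the 11 sterol genes became 10, 9, 8 and 7 and the 4 fatty acid genes 3 each. With any gene class they became 9 and 3, and by gene body 9 and 2. The sterol interval then held the share of all genes with near summits, any gene class and gene body, and that of AP-1 held its background under both other windows. Library 2 alone had 10 of the 11, losing Mvk and gaining Sc5d. Read depth was not examined, so weak binding cannot be told from none. No paired analysis was possible because the 2 ChIP libraries form a single group.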
